A study of Mus musculus with 119 samples.

Results

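Brain endothelial genes were described here as a set of 10, Cldn5, Cdh5, Pecam1, Esam, Flt1, Kdr, Tek, Slc2a1, Slco1a4 and Ly6c1, chosen by name from the 55291 genes counted in each library, and read in 119 libraries of mouse brain. RNA had been sequenced from punches of the ventral tegmental area (VTA), amygdala (Amy), nucleus accumbens (NAc), dorsal medial striatum (DMS) and prefrontal cortex (PFC). The mice, males and females, received vehicle or 10 mg/kg THC by daily intraperitoneal injection from postnatal day 28 to 48. THC (delta-9-tetrahydrocannabinol) is the main psychoactive compound of cannabis. Testing of the mice began on postnatal day 63, after a period without drug, so the groups were compared after the last of 21 injections rather than during exposure. Each region, sex and treatment had 6 libraries, other than the VTA of vehicle-treated males with 5, and all mice, vehicle and THC alike, had been injected daily. In the labels the striatal punch is dorsolateral and the mice are C57BL/6J of 11 weeks. The paper names C57BL/6NCrl and the DMS and gives a later week for the collection of the brains. The term DMS is kept here. A library holds 1 region of 1 mouse, and the labels do not tie libraries to mice, so libraries of different regions were treated as separate although the same mice gave several regions.

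Endothelial cells line the blood vessels, and in the brain they form the blood-brain barrier, in which tight junctions seal the gaps between cells and transporters carry glucose, hormones and drugs across them. Vascular endothelial growth factor (VEGF) and the angiopoietins act on receptor kinases of these cells to control vessel growth and stability, and Wnt ligands from neural cells induce and maintain the barrier state. In a tissue punch the endothelium is a minor part of the RNA, so its genes report on vessels mixed with neurons and glia.

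The start regions of the genes are shown first, to show which of them hold letters for a family of endothelial factors. Whether genes that vary together share these letters was not tested. The core letters of sites for ETS factors, the family that includes the endothelial regulators Erg and Fli1, were searched on both strands as AGGAAG and as CCGGAA in the 250 bases before each RefSeq start of the build GRCm38.p6. Of the 10 genes, 7 had an entry, and Pecam1, Cdh5 and Esam had none. AGGAAG was found before 3 of the 7 genes and in 29.5% of 32851 promoter windows of the same length, and CCGGAA before 1 of 7 and in 12% of those windows. With these shares the matches are a description of the windows and not of bound sites, and the absence of a match says only that these letters are not there. In the stretches of 30 bases around a match, written 5′ to 3′ on the strand of the gene, capitals mark the match or its reverse complement. For Cldn5, the most abundant of the genes per length, the 150 bases before the start hold neither and are printed whole in lower case.

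Cldn5, chr16:18776697-18776846, plus strand: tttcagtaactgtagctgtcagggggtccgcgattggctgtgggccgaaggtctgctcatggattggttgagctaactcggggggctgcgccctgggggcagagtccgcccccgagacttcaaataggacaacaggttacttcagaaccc
Flt1, chr5:147726047-147726076, minus strand: aggtgccggggtAGGAAGtgggctggggaa
Flt1, chr5:147726123-147726152, minus strand: cgcccctccgggAGGAAGaagagggtaggt
Slco1a4, chr6:141856307-141856336, minus strand: tcttggcaaatcCTTCCTtggcttggtatt
Kdr, chr5:75978591-75978620, minus strand: cgcccggcacagTTCCGGggtagtggggga

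Counted from the start of the gene, the Flt1 matches begin at -53 and -129, that of Slco1a4 at -104 and that of Kdr at -153. Ly6c1 has 2 start regions in the table, and its 3 matches, at -126, -38 and -34, are all in the second. They lie within the annotated span of the gene, and those at -38 and -34 overlap. Ly6c1 is among the 3 genes with AGGAAG only through this second region, while the share of 29.5% is over single windows. Tek and Slc2a1 had no match to either string in this window.

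Depth, the sum of expected counts of a library, was 3091000 to 77042100 with a median of 22092600. It was more even in the deposited table of the PFC and DMS (17826600 to 25470200) than in that of the NAc, Amy and VTA. Every one of the 10 genes was counted in every library, from a lowest count of 31 (Kdr) to a highest of 7638 (Slc2a1), and all 10 passed the filter on low counts in every comparison. Levels are CPM, a count divided by the size of its library and put on a common scale with the trimmed mean of M-values (TMM) over all 119 libraries, given as mean ± SD. In 2 libraries, FTL_344 (labelled THC-treated female Amy) and FTL_356 (labelled THC-treated male Amy), Xist and Y-linked counts went against the labelled sex. All 10 endothelial genes were detected in all regions, and the 6 neuronal genes, markers of the tissue itself, summed to 3323 CPM or more in every library. In such bulk samples, fewer endothelial cells and less RNA per endothelial cell cannot be told apart.

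All 10 genes varied by region, and 9 of 10 were highest in the VTA and 8 of 10 were second highest in the DMS. The exception was Slco1a4, which was highest in the DMS with the VTA second, and Kdr was the gene whose second region was the NAc. For Esam, Ly6c1 and Slco1a4 the means of the VTA and DMS differed by less than 1 SD, so their highest region is not clear. The lowest region was the PFC for 6 genes and the Amy for 4. Between the highest and lowest region the mean levels differed by 1.73-fold (Kdr) to 2.31-fold (Cdh5). These levels set PFC and DMS beside regions that were deposited in another table, so the order across the tables is given as levels without a test.

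Among the genes of cell junctions, Cldn5 (ENSMUSG00000041378.2, chr16:18776847-18778262, plus strand of GRCm38) encodes claudin-5, the main sealing protein of endothelial tight junctions in brain. Its level was 43.4 ± 7.92 CPM in the VTA (n = 23) and 34.5 ± 4.41 CPM in the DMS. The NAc was at 23.7 ± 2.86, the Amy at 23.7 ± 4.33 and the PFC at 19.8 ± 2.12 CPM (n = 24 in each region but the VTA). The lowest, median and highest libraries were at 30.4, 45.9 and 57.6 CPM in the VTA and at 26.9, 34.1 and 44.7 in the DMS. Those of the NAc were at 17.8, 23.3 and 30.6, of the Amy at 15.9, 22.9 and 37.6 and of the PFC at 16.2, 19.6 and 23.5 CPM. Each PFC library was below each DMS library, whereas the ranges of NAc, Amy and VTA overlapped, and the NAc and Amy means differed by less than 1 SD. Cdh5 (ENSMUSG00000031871.9, chr8:104101625-104144511, plus strand of GRCm38) encodes VE-cadherin, the adhesion molecule of endothelial adherens junctions. Its level was 13.3 ± 3.51 CPM in the VTA (n = 23) and 8.48 ± 0.946 CPM in the DMS. The NAc was at 7.69 ± 1.27, the Amy at 6.08 ± 1.05 and the PFC at 5.76 ± 0.819 CPM (n = 24 in each region but the VTA). The lowest, median and highest VTA libraries were at 9.57, 12.7 and 24.9 CPM, and those of the Amy at 4.1, 6.11 and 7.92. The VTA spread was the widest of the regions and its lowest library stayed above the highest of the Amy. Pecam1 (ENSMUSG00000020717.19, chr11:106654217-106750628, minus strand of GRCm38) encodes PECAM-1 (CD31), an adhesion molecule of endothelial cell contacts also found on platelets and leukocytes. Its level was 18.9 ± 2.91 CPM in the VTA (n = 23) and 15.8 ± 1.62 CPM in the DMS. In PFC libraries it was 9.1 ± 1.1 CPM, compared with 12.5 ± 1.59 in NAc and 10.6 ± 1.21 in Amy libraries (n = 24 in each region but the VTA). Its order was VTA, DMS, NAc, Amy and PFC, and neighbouring regions overlapped in every case. Esam (ENSMUSG00000001946.14, chr9:37528078-37538319, plus strand of GRCm38) encodes an endothelial adhesion molecule of the immunoglobulin family. Its level was 11.1 ± 1.32 CPM in the VTA (n = 23) and 10.4 ± 1.31 CPM in the DMS. The NAc was at 6.6 ± 0.997, the Amy at 5.77 ± 0.811 and the PFC at 7.33 ± 0.766 CPM (n = 24 in each region but the VTA). It was close in the VTA and DMS, whose means differed by less than 1 SD, and lowest in the Amy.

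Of the receptors, Flt1 (ENSMUSG00000029648.13, chr5:147561604-147726011, minus strand of GRCm38) encodes VEGF receptor 1, which binds VEGF-A tightly and in its soluble form takes it away from the other receptor. Its level was 59 ± 5.26 CPM in the VTA (n = 23) and 44.8 ± 4.18 CPM in the DMS. Amy libraries averaged 30.4 ± 4.37 CPM, those of the NAc 39.5 ± 3.15 and those of the PFC 32.7 ± 3.29 (n = 24 in each region but the VTA). The lowest, median and highest libraries were at 51.7, 57.3 and 73.8 CPM in the VTA and at 36.3, 44.8 and 52.8 in the DMS. Those of the NAc were at 32.9, 39.3 and 45.2, of the Amy at 21, 30.9 and 38.9 and of the PFC at 25.9, 32.7 and 39.2 CPM. Every VTA library was above every NAc and Amy library, and the PFC and Amy, the lowest regions, differed by less than 1 SD. Kdr (ENSMUSG00000062960.10, chr5:75932827-75978458, minus strand of GRCm38) encodes VEGF receptor 2, the main signalling receptor for VEGF-A. Its level was 13.8 ± 2.54 CPM in the VTA (n = 23) and 9.66 ± 1.83 CPM in the DMS. In PFC libraries it was 7.95 ± 1.29 CPM, compared with 10.3 ± 1.06 in NAc and 9.36 ± 1.87 in Amy libraries (n = 24 in each region but the VTA). It varied least by region, and below the VTA each neighbouring pair of regions differed by less than 1 SD. Tek (ENSMUSG00000006386.15, chr4:94739289-94874976, plus strand of GRCm38) encodes TIE2, the receptor of the angiopoietins. Its level was 14.5 ± 1.93 CPM in the VTA (n = 23) and 11.2 ± 1.06 CPM in the DMS. Amy libraries averaged 7.24 ± 1.1 CPM, those of the NAc 8.95 ± 1.2 and those of the PFC 7.79 ± 0.802 (n = 24 in each region but the VTA). Its VTA libraries all exceeded its Amy libraries, and the PFC and Amy were alike within 1 SD.

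Of the transporters, Slc2a1 (ENSMUSG00000028645.11, chr4:119108711-119137983, plus strand of GRCm38) encodes the glucose transporter GLUT1, which is rich in barrier endothelium and is also made by astrocytes. Its level was 98.6 ± 10.4 CPM in the VTA (n = 23) and 64.2 ± 5.96 CPM in the DMS. Amy libraries averaged 49.6 ± 5.02 CPM, those of the NAc 54.1 ± 5.19 and those of the PFC 45.4 ± 2.88 (n = 24 in each region but the VTA). The lowest, median and highest libraries were at 50.8, 66.2 and 75.2 CPM in the DMS and 80.6, 97 and 120.0 in the VTA. Slc2a1 alone among the 10 genes had VTA libraries that were all above those of every other region. Slco1a4 (ENSMUSG00000030237.14, chr6:141805440-141856199, minus strand of GRCm38) encodes an organic anion transporter (Oatp1a4) of the barrier. Its level was 40.9 ± 5.62 CPM in the VTA (n = 23) and 43.9 ± 3.33 CPM in the DMS. The NAc was at 26.2 ± 2.64, the Amy at 23.6 ± 3.04 and the PFC at 27 ± 2.77 CPM (n = 24 in each region but the VTA). The lowest, median and highest libraries were at 38.6, 44.1 and 50.5 CPM in the DMS and 27.5, 42.6 and 50.3 in the VTA. These ranges overlapped and the means differed by less than 1 SD, while both means lay above those of the other 3 regions, whose ranges reached that of the VTA (lowest library 27.5 CPM, and highest 32.2 in the NAc). Ly6c1 (ENSMUSG00000079018.10, chr15:75044018-75048830, minus strand of GRCm38) encodes a membrane-anchored surface protein of the Ly6 family found on mouse endothelium and on some leukocytes. Its level was 18.8 ± 3.01 CPM in the VTA (n = 23) and 18.7 ± 2.14 CPM in the DMS. In PFC libraries it was 9.8 ± 1.11 CPM, compared with 11.4 ± 1.33 in NAc and 10.4 ± 1.93 in Amy libraries (n = 24 in each region but the VTA). The means of VTA and DMS differed by less than 1 SD, as did those of the NAc, Amy and PFC from one to the next. The counts of Ly6c1 are uncertain, because its longest transcript is 97.6% identical to that of the neighbouring Ly6c2 over 822 aligned bases and 51.3% of its counts were not whole, a sign of reads that fit more than 1 gene. Of the counts of Slco1a4, too, 15.1% were not whole. Ly6c2 itself had a mean of only 0.0856 CPM. Slc2a1 shares exon sequence with Gm12868, an antisense gene on the opposite strand, and the strand setting of the counting is not given in the sources used here.

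**Figure D1:**
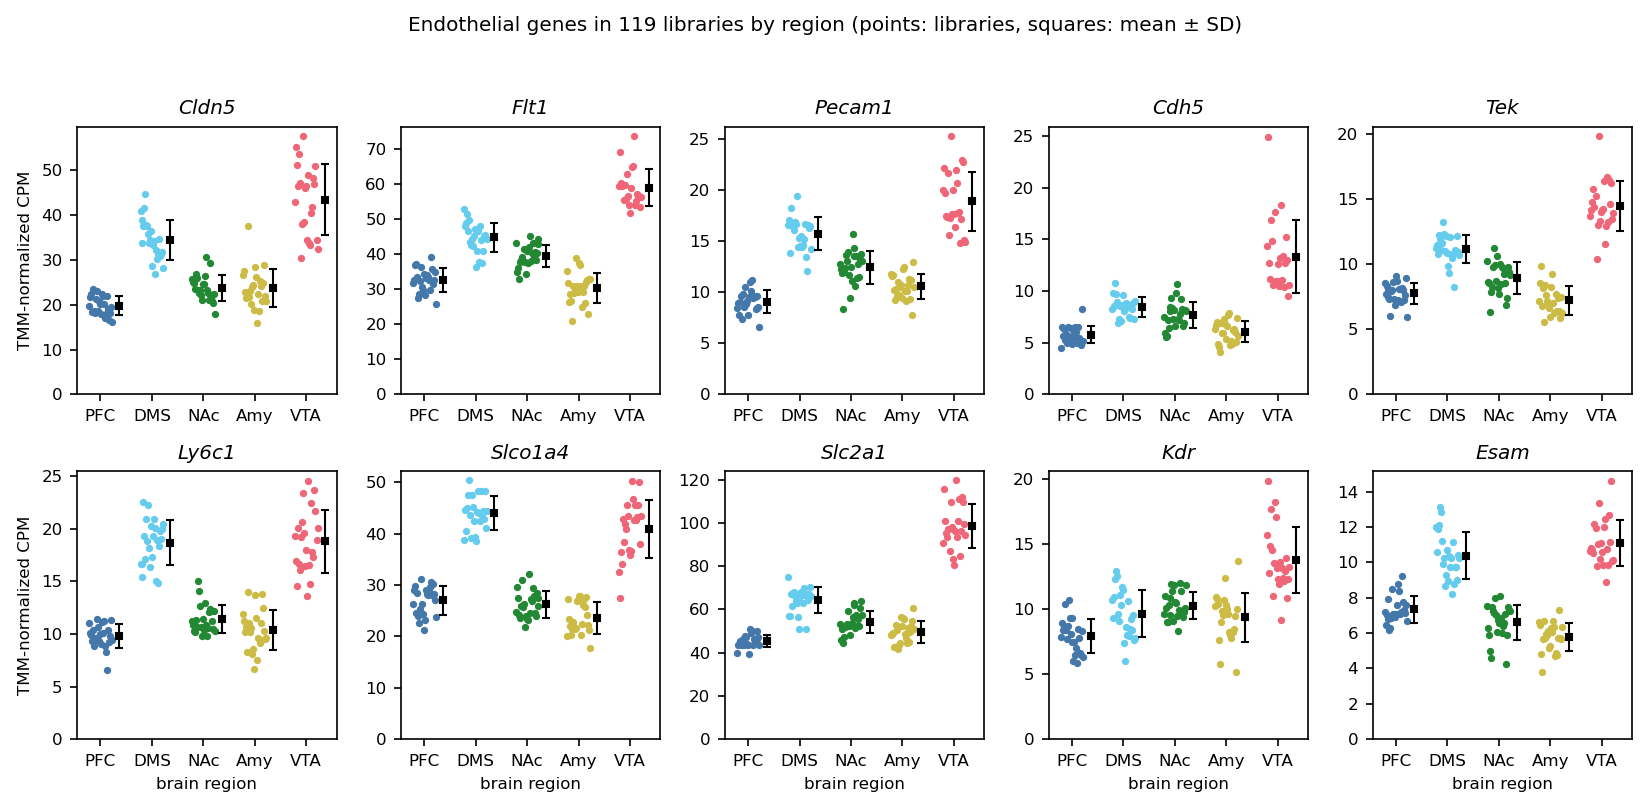
TMM-normalized CPM of each of the 10 genes (y axis, from 0) by brain region (x axis), 1 point for each of 119 libraries and a square with bars for the mean ± SD. The VTA was highest for 9 genes and the DMS for Slco1a4, and only for Slc2a1 do the VTA libraries stand clear of all others.

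Levels of different genes were compared only per length, as CPM per kilobase of the exons of a gene in GENCODE. On this scale Cldn5 was the most abundant of the 10 in all 5 regions, at 14 ± 1.5 CPM per kilobase in the PFC and 30.7 ± 5.59 in the VTA, followed by Slc2a1 at 13 ± 0.822 and 28.1 ± 2.96, and Ly6c1 at 5.85 ± 0.661 and 11.2 ± 1.8. Kdr was the least abundant in every region, at 0.881 ± 0.143 in the PFC and 1.53 ± 0.281 in the VTA. Cldn5 and Slc2a1 differed by more than the larger of their SDs in 1 region, the DMS, and by less than it in the other 4, so their order is clear in the DMS alone. As a share of the per-length total of the 10 genes, Slco1a4 made up 9.09% ± 0.724 in the DMS and 6.73% ± 0.97 in the VTA, and Slc2a1 24.3% ± 2.07 in the DMS and 29.6% ± 2.36 in the VTA. Cldn5 held 29.5% ± 1.92 in the PFC and 32.8% ± 3.43 in the Amy, which are its lowest and highest shares.

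Within a table the regions were tested with edgeR, over the 4 groups of sex and treatment of each region. A gene was called where its adjusted p was under 0.05 and its log2 fold change was 0.4 or more in either direction. In the PFC, 9 of 10 genes were called lower than in the DMS, where 26.5% of 17442 genes tested were called in that direction. Ly6c1 differed most, with a log2 fold change of -0.92 (SE 0.0487) and an adjusted p of 4.19e-23, followed by Pecam1 at -0.78 (SE 0.0418) and Cldn5 at -0.78 (SE 0.037). Kdr, at -0.26 (SE 0.0501) with an adjusted p of 4.86e-06, was lower in the PFC but under the fold threshold. The median log2 fold change of the 10 genes was -0.53 beside -0.02 for all genes tested. The PFC and DMS libraries did not overlap for 4 of the 10 genes (Cldn5, Pecam1, Ly6c1 and Slco1a4), a share close to that of all genes tested, 32.7%.

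Against the VTA, 9 of 10 genes were called lower in the NAc and 10 of 10 in the Amy, where 27.5% and 23.8% of 18295 genes were called in that direction. Slc2a1 had the largest fold in the NAc, at -0.84 (SE 0.0384) with an adjusted p of 1.10e-30, and Cdh5 in the Amy, at -1.14 (SE 0.0766) with an adjusted p of 9.13e-22. Cldn5 was lower by a log2 fold change of -0.83 (SE 0.0644) in the NAc and -0.89 (SE 0.0646) in the Amy. Kdr again changed least, at -0.38 (SE 0.0634) in the NAc, under the fold threshold, and -0.58 (SE 0.064) in the Amy, where it was called. In the NAc it passed the threshold when either of 2 vehicle-treated male VTA libraries was left out, at -0.41 without FTL_371 and -0.41 without FTL_373, and at -0.50 in vehicle libraries alone. The median over the 10 genes was -0.69 in the NAc and -0.92 in the Amy, beside -0.00482 and -0.00196 for all genes. Libraries did not overlap for 3 of 10 genes between NAc and VTA (Flt1, Slc2a1 and Esam) and for 6 of 10 between Amy and VTA, where 25.8% and 15.8% of all genes did not.

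Between the NAc and Amy, 1 gene of 10 was called, Flt1, which was higher in the NAc with a log2 fold change of 0.43 (SE 0.0433) and an adjusted p of 8.13e-14, where 14.1% of 18295 genes were called higher. All 10 log2 fold changes lay above 0, with a median of 0.23 beside 0.03 for all genes. Cdh5 at 0.39 (SE 0.0768) and Tek at 0.36 (SE 0.0583) came next and were under the fold threshold, and Cldn5 at 0.05 (SE 0.0646) had an adjusted p of 0.503, with a 95% interval of -0.08 to 0.18. No gene of the 10 had libraries that did not overlap, while 6.88% of all genes did. With vehicle libraries alone, Flt1 in the NAc was 0.39 and under the fold threshold, so no gene was called.

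**Figure D2:**
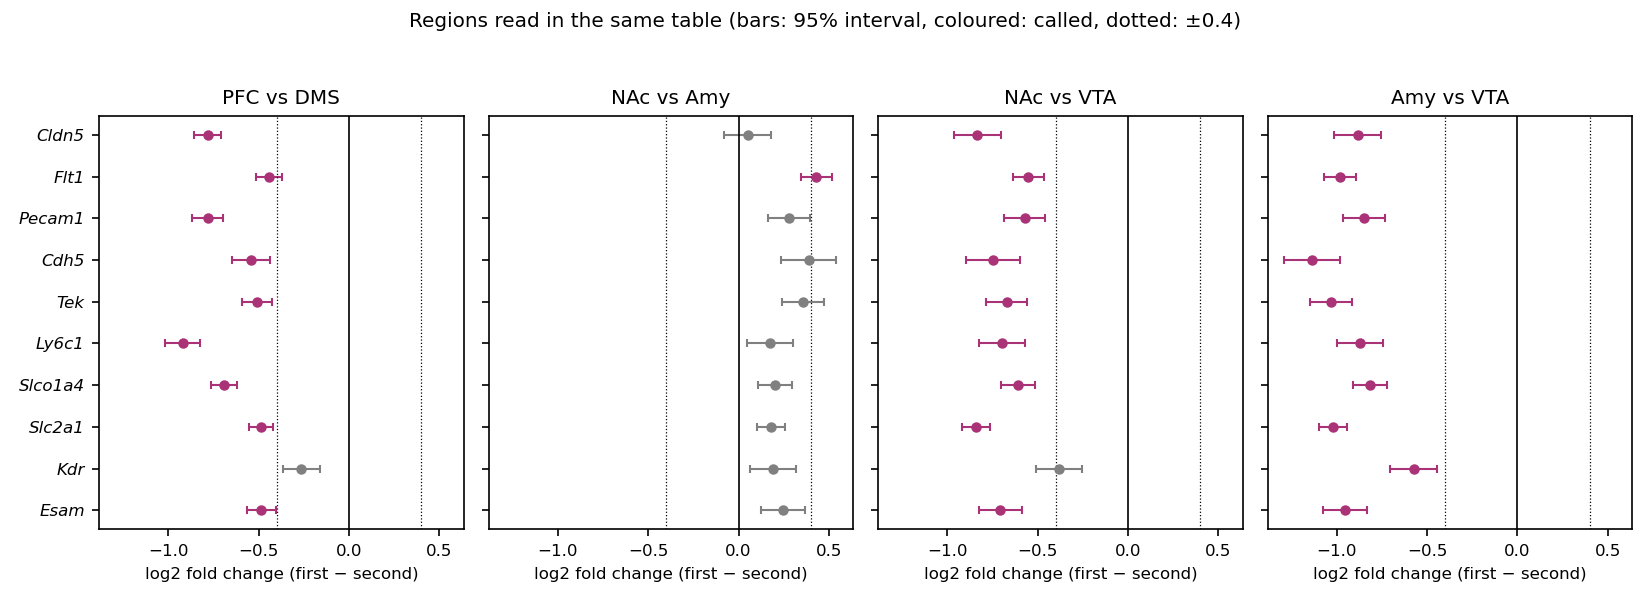
Log2 fold change of the 10 genes (x axis, first region minus second) in the 4 comparisons of regions within a table, with 95% intervals, coloured where called and with dotted lines at the fold threshold. All points lie below 0 in PFC vs DMS, NAc vs VTA and Amy vs VTA, and Kdr is the nearest to 0 in each of these.

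The other genes of the vessel wall were read from lists of named genes by cell type and pathway. Of 22 further endothelial genes, 19 were called lower and 1 higher in the PFC than in the DMS. Of the same genes 15 were lower in the NAc than in the VTA and 19 lower in the Amy than in the VTA, with none higher in either, beside the shares of all genes called lower given above. Over all genes tested, 24.5% were called higher in the PFC than in the DMS, 26.9% in the NAc than in the VTA and 22.1% in the Amy than in the VTA, and 13.5% were called lower in the NAc than in the Amy. The counts of the lists below are to be read beside these shares. The gene that was higher in the PFC was Cd34, a sialomucin of blood-forming and endothelial cells, at 86.8 ± 10.2 against 14.2 ± 1.89 CPM in the DMS, while Ly6a, of the same family as Ly6c1, was at 6.3 ± 0.683 against 12.6 ± 1.59 CPM. Nostrin, a partner of endothelial nitric oxide synthase, was at 1.56 ± 0.4 against 5.3 ± 1.01 CPM in the NAc and VTA. Between NAc and Amy, 5 were called higher and 1 lower in the NAc, the last being Egfl7, a secreted factor of endothelium, at 16.1 ± 1.3 against 27.8 ± 3.35 CPM. Of 13 endothelial transcription factors, 9 were lower in the PFC, and 11 in the NAc and 12 in the Amy were lower than in the VTA, among them Tal1, a factor of blood and endothelial lineages that is also made by some midbrain neurons, at 1.68 ± 0.697 against 15.7 ± 4.92 CPM in the Amy and VTA. Erg, the ETS factor, was at 2.8 ± 0.551 against 4.6 ± 0.57 CPM in the PFC and DMS, with an adjusted p of 2.92e-14.

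Lists of the barrier and its signals held genes called in both directions. Of 12 barrier transporters, 4 were higher and 3 lower in the PFC than in the DMS, and Tfrc, the transferrin receptor, which neurons also make, was at 157 ± 10.2 against 77.2 ± 5.86 CPM. Against the VTA, 7 of them were lower in the NAc and 7 in the Amy, with 0 higher, among them Slc16a1, the lactate transporter MCT1, at 23.8 ± 3.05 against 60.6 ± 5.63 CPM in the NAc and VTA. Among them too was Abcb1a, the drug pump P-glycoprotein, at 17 ± 2.34 against 36.4 ± 3.89 CPM in the Amy and VTA. Of 10 further junction genes, 4 were lower and 1 higher in the PFC than in the DMS. Of the same 10, 6 were lower and 1 higher in the NAc than in the VTA, and 5 lower in the Amy than in the VTA. Of 14 genes of the VEGF and angiopoietin pathway, 5 were higher and 5 lower in the PFC than in the DMS, and 10 were lower and 1 higher in the Amy than in the VTA. The ligand Angpt1, which acts on TIE2, was at 7.72 ± 1.16 against 0.642 ± 0.376 CPM in the PFC and DMS, the opposite direction to its receptor gene Tek. Apln, the ligand of the apelin receptor, was at 11.9 ± 3.07 against 45.2 ± 6 CPM in the Amy and VTA. Of 13 genes of the Wnt barrier pathway, 2 were higher and 5 lower in the PFC than in the DMS, with the ligands moving apart, Wnt7b at 55.3 ± 6.2 against 12.4 ± 1.61 CPM and Wnt7a at 8.63 ± 1.04 against 26.4 ± 2.83 CPM. In the NAc against the VTA, 3 were higher and 3 lower. Of 15 arterial and venous genes, 6 were lower and 1 higher in the PFC than in the DMS, led by Efnb2, an arterial ephrin that neurons also make, at 72.1 ± 4.88 against 119 ± 6.84 CPM. Against the VTA, 3 of the 15 were higher and 6 lower in the NAc, and 3 higher and 7 lower in the Amy. The genes with the smallest p lay opposite to the 10 endothelial genes in part, since Efnb2 was at 145 ± 14.4 against 20.9 ± 7.98 CPM in the NAc and VTA and at 57.9 ± 7.31 against 20.9 ± 7.98 CPM in the Amy and VTA. Nr2f2, the venous factor COUP-TFII, which some neurons also make, was at 107 ± 23.4 against 18.1 ± 3.64 CPM in the Amy and VTA, a log2 fold change of 2.53, but at 3.39 ± 1.25 against 18.1 ± 3.64 CPM in the NAc and VTA. The summed level of the 15 genes was lowest in the VTA, with a median of 153 CPM beside 249 in NAc and 263.5 in Amy libraries. This sum is weighted to abundant genes such as Efnb2 and Nr2f2 and does not report on genes of the list with lower levels. Of those, Bmx, Gkn3, Sema3g, Gja4 and Mgp had their highest mean in the VTA, while Gja5 and Ackr1 did not.

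Markers of other cells also differed between regions, some in the direction of the endothelial genes and some against it. Of 16 genes of mural cells, the pericytes and smooth muscle around vessels, 10 were lower in the PFC than in the DMS, and 12 in the NAc and 13 in the Amy were lower than in the VTA. The summed level of the 6 oligodendrocyte genes was 10044 to 19112 CPM in the VTA and 5801 to 8270.5 CPM in the DMS. In the NAc it was 3309.6 to 6407 CPM, in the Amy 1722 to 7478 CPM and in the PFC 1741 to 4375 CPM. All 6 were called lower in the PFC than in the DMS and lower in the NAc and Amy than in the VTA. Of the 6 neuronal genes 4 were called higher in the PFC than in the DMS and none lower, and they summed to 7791 to 8692 CPM in the PFC and 3323 to 4337 CPM in the DMS. Between NAc and VTA the neuronal genes went both ways, with Rbfox3 higher in the NAc (log2 fold change 1.42) and Tubb3 lower (-1.05). Of the 7 astrocyte genes, 2 were called higher in the PFC than in the DMS and 0 lower, while 5 were lower and 2 higher in the NAc than in the VTA, as were 5 and 2 in the Amy. They summed to 3126 to 4501 CPM in the VTA, 2857 to 3579.5 CPM in the NAc and 2298 to 3573 CPM in the Amy, and to 2622 to 3309 CPM in the DMS and 3084 to 3581 CPM in the PFC. Aldoc, a glycolytic enzyme of astrocytes, was at 586 ± 43 against 1110.2 ± 95.9 CPM in the NAc and VTA, while Slc1a3, an astrocytic glutamate transporter, was higher in the NAc, with a log2 fold change of 1.05. Slc2a1, which astrocytes also make, was lower in the NAc and Amy than in the VTA, like 5 of the 7 astrocyte genes and unlike 2. It was also lower in the PFC than in the DMS, where the 2 astrocyte genes called were higher. Of the 6 microglial genes, 3 were called lower in the PFC than in the DMS, with a median sum of 286.2 CPM in PFC and 382 CPM in DMS libraries, and 1 was called lower in the NAc and 0 in the Amy than in the VTA. The 9 vascular fibroblast genes summed to 36.7 to 246 CPM in the VTA and 28.6 to 56.9 CPM in the NAc. The 5 red cell genes summed to 109 to 4579 CPM in the VTA, the widest spread of any region, and 80 to 283.1 CPM in the NAc. None of the genes of these lists was at 0 in every library of a region. In the 6 of 23 VTA libraries whose red cell sum was no higher than the highest of the NAc, the 10 endothelial genes summed to 303.1 to 329.4 CPM, above every library of the NAc (highest 224) and of the DMS. Without the other 17 VTA libraries, 8 of 10 genes were called lower in the NAc and 10 of 10 in the Amy. This choice was made after seeing the data, and the share of all genes called was not taken, so the counts stand without a background. The VTA libraries left were 3 of THC-treated females, 2 of vehicle-treated males and 1 of a THC-treated male, with none of vehicle-treated females. The genes under the fold threshold in the NAc were then Kdr and Pecam1, the latter at -0.36. The part of red cell, oligodendrocyte, neuronal, astrocytic and microglial content in the levels was not tested.

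Males and females were compared within each region with treatment as a covariate. None of the 10 genes passed both thresholds in any region, where 0.237% (PFC), 2.64% (DMS), 0.25% (NAc), 0.0118% (Amy) and 0.113% (VTA) of the genes tested did, and DESeq2 called none of the 10 either. At the adjusted p alone, 4 of the 50 values passed, 3 of them lower in males. There was 1 gene in the PFC, 2 in the DMS and 1 in the NAc, where 1.77%, 10.9% and 2.17% of all genes passed, and 0 in the Amy and VTA, where 0.0177% and 0.166% did. At an unadjusted p under 0.05 the counts were 1 lower in males in the PFC, 6 lower in the DMS, 2 higher in the NAc and 1 in each direction in the VTA, with 0 for Amy libraries. Of all genes tested, 8.66% (PFC), 13.9% (DMS), 7.39% (NAc), 3.21% (Amy) and 4.05% (VTA) were lower in males at this p. Those higher in males came to 7.67% (PFC), 14% (DMS), 9% (NAc), 2.85% (Amy) and 3.15% (VTA). All Amy counts and shares hold FTL_344 among females and FTL_356 among males, whose Xist and Y-linked counts go against the label. They are therefore not a clean comparison of the sexes, and shares without both libraries were not taken. Kdr stood at 6.04, 8.18 and 10.6 CPM in 12 male libraries and 9.07, 11 and 13 in 12 female libraries of the DMS, as lowest, median and highest. All 12 male libraries were below the female median, and the ranges overlapped. The log2 fold change of Kdr, male minus female, was -0.39 (SE 0.0738) with an adjusted p of 0.00207 from edgeR, just under the fold threshold. In the PFC, Kdr stood at 5.88, 6.82 and 8.48 CPM in 12 male libraries and 7.71, 8.69 and 10.7 in 12 female libraries, again with all 12 males below the female median. The log2 fold change was -0.34 (SE 0.0646) with an adjusted p of 0.00427. In the VTA it was -0.29 (SE 0.0835) with an adjusted p of 0.311, in Amy libraries -0.11 (SE 0.11) with an adjusted p of 0.965, and in the NAc 0.00438 (SE 0.0595), with an interval of -0.12 to 0.13. All 11 male libraries of the VTA, 11 of 12 of the Amy and 7 of 12 of the NAc were below the female median of their region. The Amy value holds the libraries FTL_344 and FTL_356, whose counts go against their labelled sex, and the male library above the median was FTL_356, at 13.7 CPM the highest of that region. Without both libraries the value was -0.18 with an adjusted p of 0.789. Whether the effect of sex on Kdr differs between regions was not tested.

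Cldn5 in the DMS stood at 26.9, 31.3 and 34.7 CPM in 12 male libraries and 33.8, 37.5 and 44.7 in 12 female libraries. This is a log2 fold change of -0.26 (SE 0.0461) with an adjusted p of 0.00116 from edgeR. Slc2a1 in the NAc went the other way, at 51.5, 57 and 63.8 CPM in 12 male libraries and 44.4, 52.1 and 59.2 in 12 female libraries. Its log2 fold change was 0.18 (SE 0.0425) with an adjusted p of 0.0239. In the DMS the other genes at an unadjusted p under 0.05 were Flt1 at -0.12, Pecam1 at -0.12, Tek at -0.12 and Esam at -0.16. The transporters Slco1a4 at 0.03 and Slc2a1 at 0.08 were above 0. In the same comparison of the DMS, 7 of 22 further endothelial genes had an unadjusted p under 0.05 at a lower level in males and 2 at a higher one, beside the shares of all genes above. Of the 6 neuronal genes 5 had one at a lower level, with a median of -0.12, and the part of neuronal content in the values was not tested. In the NAc, 9 of 21 further endothelial genes tested, 5 of 15 mural genes, 6 of 6 microglial genes and 5 of 6 oligodendrocyte genes had an unadjusted p under 0.05 at a higher level in males, and none at a lower one, beside 9% of all genes higher in males. Their part was not tested either.

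**Figure D3:**
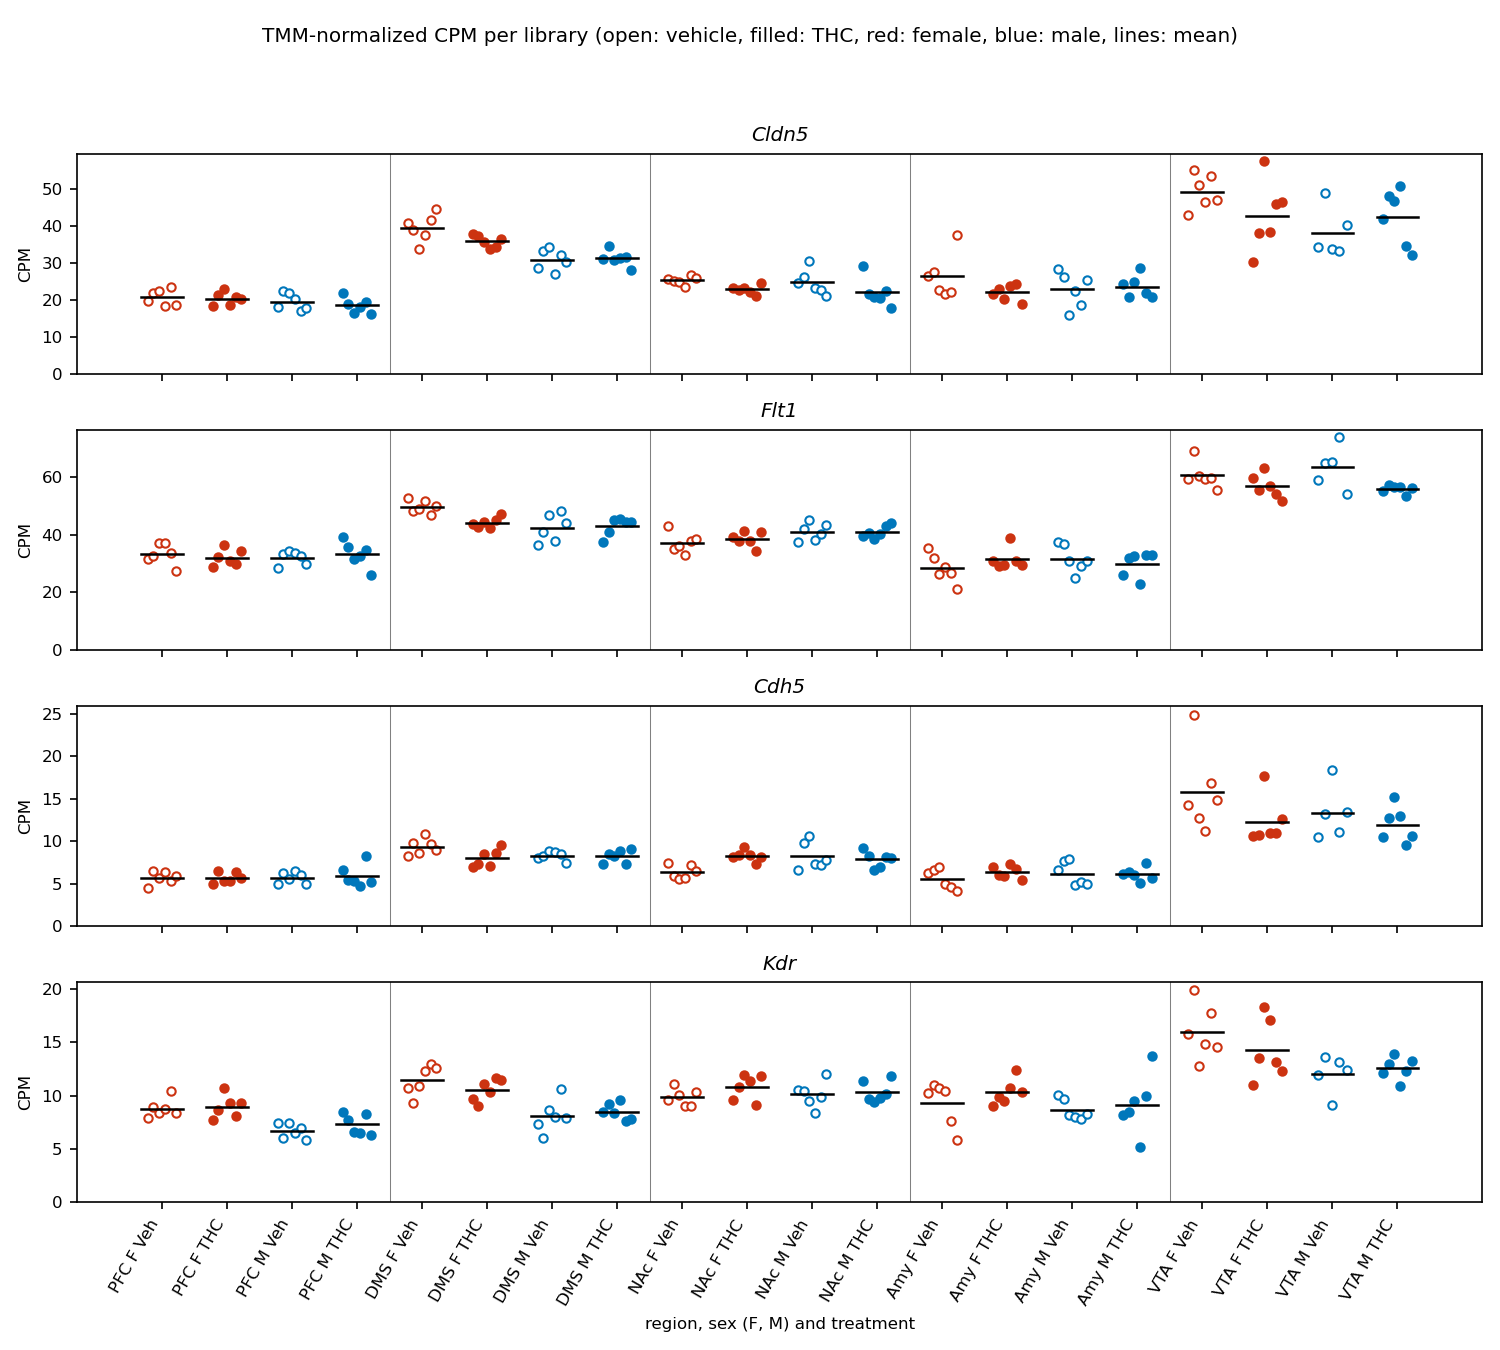
TMM-normalized CPM of Cldn5, Flt1, Cdh5 and Kdr (y axes, from 0) in each library of the 20 groups of region, sex and treatment (x axis), with open points for vehicle, filled points for THC, red for females, blue for males and a line at the mean. Kdr in the PFC and DMS and Cldn5 in the DMS are lower in males, and vehicle and THC points overlap in every group.

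The effect of THC on the endothelial genes was asked in each region and sex, 10 comparisons of 6 against 6 libraries (6 against 5 in the male VTA). None of the 10 genes was called in any of them by edgeR or by DESeq2. The background was also near 0, since 1.57% of the genes tested were called in the female Amy, 0.0127% in the female DMS and 0% in the other 8 comparisons. Of the 100 values of log2 fold change, 45 were above 0 and 55 below, and the largest in size was 0.37. The standard errors were 0.04 to 0.186 with a median of 0.0886, and 80 of the 100 intervals of 95% lay within the fold threshold in both directions, so in these a change of that size is outside the interval. At an unadjusted p under 0.05 there were 9 of 100 values, 7 lower and 2 higher with THC, beside 8.15% of all 161267 values of genes tested in these comparisons. Vehicle and THC libraries overlapped for every gene in every comparison, while 0.776% of all values had groups that did not overlap. The lowest adjusted p from edgeR was 0.208.

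Flt1 in the female DMS had the smallest unadjusted p of the values below 0, with lowest, median and highest libraries at 46.7, 49.3 and 52.8 CPM with vehicle and 42.3, 44 and 47.3 with THC. All but 1 of the THC libraries were below every vehicle library, and the means were 49.7 ± 2.25 and 44.2 ± 1.81 CPM. The log2 fold change was -0.16 (SE 0.0404), with an unadjusted p of 0.00121 and an adjusted p of 0.247 from edgeR, and of 0.0464 from DESeq2, so that the adjusted p depends on the tool and the fold was under the threshold in both. Esam in the female DMS stood at 10.6, 12.1 and 13.1 CPM with vehicle and 8.68, 10.1 and 11.2 with THC, a log2 fold change of -0.26 (SE 0.0775) with an unadjusted p of 0.00352. Cdh5 stood at 8.25, 9.34 and 10.8 CPM with vehicle and 6.92, 7.93 and 9.61 with THC, a log2 fold change of -0.21 (SE 0.0954) with an unadjusted p of 0.0406. Neither passed after adjustment in edgeR. The median over the 10 genes in the female DMS was -0.08, and in the male DMS, where no value had an unadjusted p under 0.05, it was 0.01.

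Cdh5 in the female NAc had the lowest unadjusted p of all, 8.42e-04, at a higher level with THC. Its libraries stood at 5.58, 6.2 and 7.49 CPM with vehicle and 7.28, 8.29 and 9.31 with THC, with means of 6.39 ± 0.805 and 8.28 ± 0.654 CPM. The log2 fold change was 0.37 (SE 0.092), and its adjusted p was 0.991 from edgeR. In the same libraries Cldn5 stood at 23.4, 25.4 and 26.7 CPM with vehicle and 20.9, 23 and 24.7 with THC, a log2 fold change of -0.15 (SE 0.0513) with an unadjusted p of 0.0087, of the opposite sign to Cdh5. In the male NAc, Cdh5 was -0.05 (SE 0.119) and Cldn5 -0.17 (SE 0.112). The sex x treatment interaction in the NAc was -0.43 (SE 0.153) for Cdh5, with an adjusted p of 0.385.

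In the female Amy, the comparison with the most calls over all genes, Cldn5 stood at 21.5, 24.7 and 37.6 CPM with vehicle and 18.8, 22.4 and 24.5 with THC, a log2 fold change of -0.29 (SE 0.129) with an unadjusted p of 0.0409 and an adjusted p of 0.208. The value was -0.25 without FTL_344, whose counts go against its labelled sex, and -0.15 without FTL_338, the vehicle library with the highest Cldn5. Ly6c1 was -0.29 (SE 0.141) with an adjusted p of 0.251, and -0.21 without FTL_344. The 8 genes of choroid plexus and fenestrated endothelium, a tissue of the ventricle near the Amy, summed to 24.4 to 1149.6 CPM in the vehicle libraries and 25.6 to 3632 CPM in the THC libraries of the female Amy, and the part of this tissue in the values was not tested. In the male Amy no value had an unadjusted p under 0.05, and with or without FTL_356 none was called.

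In the female VTA, Slco1a4 stood at 27.5, 35.3 and 42.9 CPM with vehicle and 35.7, 41.4 and 45.5 with THC, a log2 fold change of 0.21 (SE 0.0885) with an unadjusted p of 0.0326. Cdh5, at 11.2, 14.6 and 24.9 CPM with vehicle and 10.6, 11 and 17.6 with THC, had the widest interval of the 100, -0.76 to 0.04, around -0.36. For Cdh5 a single library set the size of the value, which was -0.49 without the THC library FTL_365 and -0.18 without the vehicle library FTL_358. The red cell genes of the female VTA summed to 920.1 to 1634 CPM with vehicle and 109 to 3882 CPM with THC, and their part in these values was not tested. In the male VTA, Flt1 stood at 54.1, 64.8 and 73.8 CPM with vehicle and 53.4, 56.4 and 57.3 with THC, a log2 fold change of -0.18 (SE 0.0685) with an unadjusted p of 0.022. In the male PFC, Pecam1 stood at 9.47, 9.91 and 11.2 CPM with vehicle and 6.59, 8.52 and 9.67 with THC, a log2 fold change of -0.25 (SE 0.0835) with an unadjusted p of 0.00645. Neither passed after adjustment, with adjusted p of 0.819 and 1 from edgeR. The female PFC, male DMS, male NAc and male Amy gave no value with an unadjusted p under 0.05.

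Kdr, Tek, Slc2a1 and Ly6c1 had no unadjusted p under 0.05 in any region or sex. Their log2 fold changes with THC ran from -0.15 (THC vs vehicle, Female VTA) to 0.13 (THC vs vehicle, Female Amy) for the VEGF receptor Kdr, from -0.16 (THC vs vehicle, Male Amy) to 0.22 (THC vs vehicle, Female NAc) for the angiopoietin receptor Tek, from -0.09 (THC vs vehicle, Female VTA) to 0.11 (THC vs vehicle, Female NAc) for the glucose transporter Slc2a1 and from -0.29 (THC vs vehicle, Female Amy) to 0.18 (THC vs vehicle, Female NAc) for Ly6c1. Slc2a1 was above 0 in 4 of 10 comparisons, Kdr in 8, Tek in 4 and Ly6c1 in 8.

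**Figure D4:**
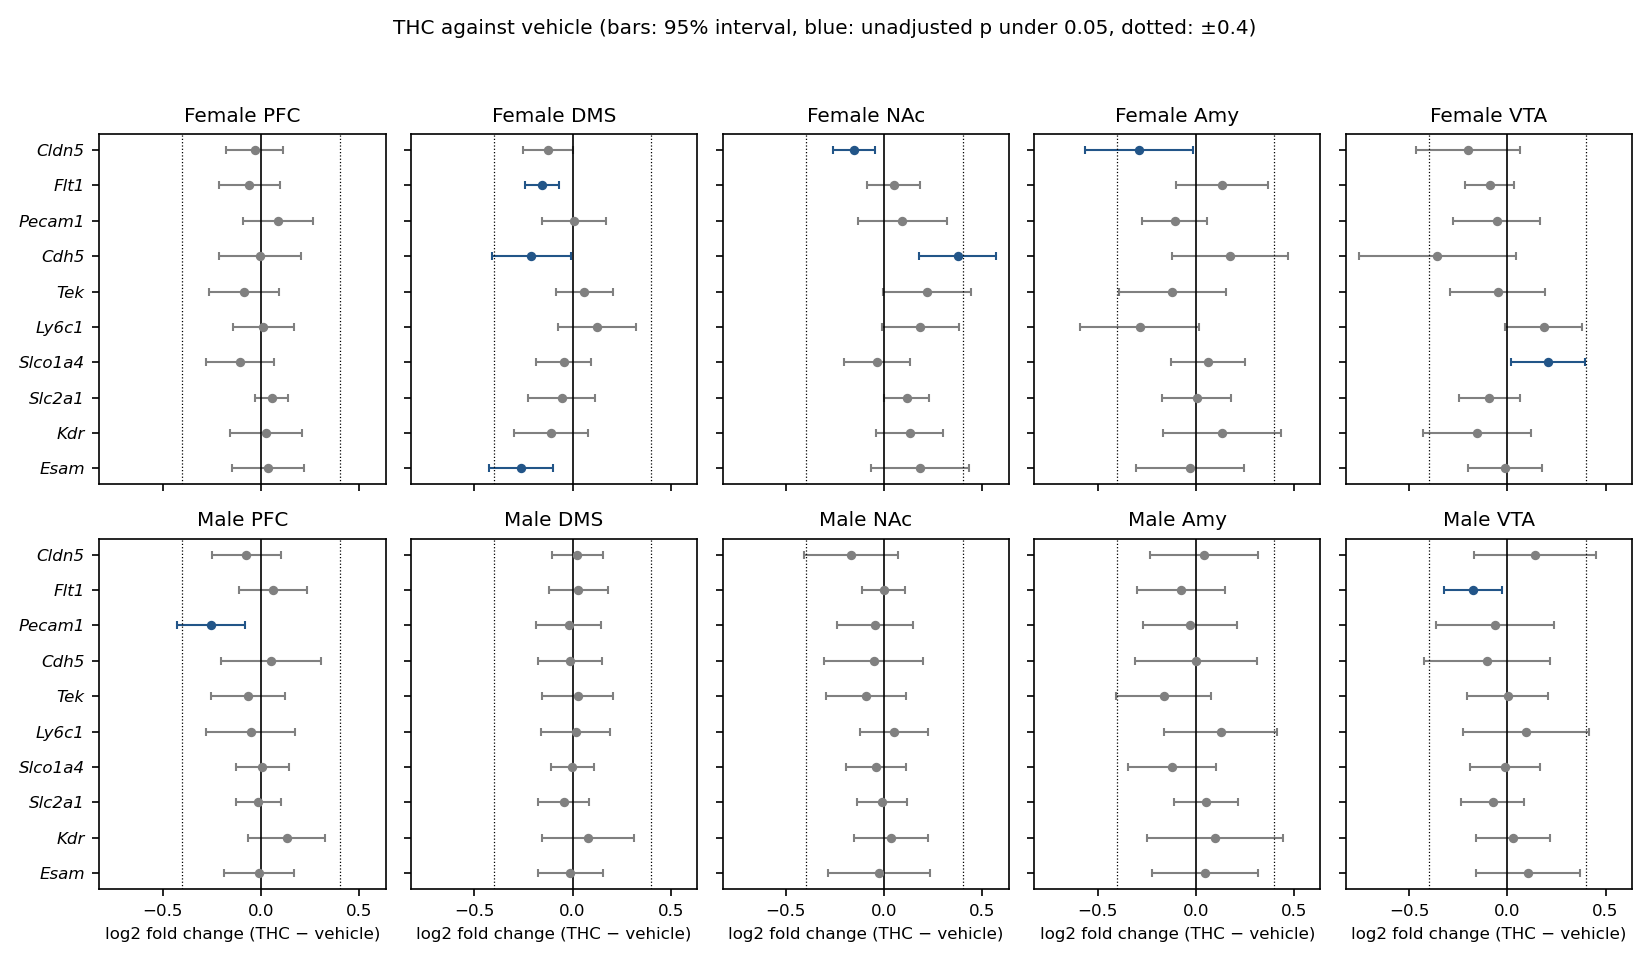
Log2 fold change of the 10 genes (x axis, THC minus vehicle) in each region and sex, with 95% intervals, blue where the unadjusted p was under 0.05 and with dotted lines at the fold threshold. The points lie on both sides of 0, and none of the 9 blue values passed the adjusted p of edgeR.

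With both sexes of a region in 1 fit and sex as a covariate, 0 of 10 genes were called in each of the 5 regions, as were 0% of all genes. At an unadjusted p under 0.05 these fits held 3 of 50 values, beside 7.4% of all values of genes tested. All 3 were lower with THC and were Flt1 in the VTA at -0.13 (SE 0.0451) with an adjusted p of 0.4 from edgeR, Cldn5 in the NAc at -0.16 (SE 0.0608) with 0.403, and Esam in the DMS at -0.14 (SE 0.0583) with 0.988. The sex x treatment interaction called 0 of 10 genes in each region, with 0% of all genes called in 4 regions and 0.0059% in the Amy. In the Amy, FTL_344 and FTL_356 entered these fits under their labelled sex, which their counts go against. At an unadjusted p under 0.05 the interaction held 5 of 50 values, beside 8.97% of all values of genes tested. They were Pecam1 in the PFC at -0.34 (SE 0.121), Flt1 at 0.19 (SE 0.0822) and Esam at 0.25 (SE 0.108) in the DMS, Tek at -0.31 (SE 0.147) in the NAc and, in the NAc, Cdh5 as above. Of the other vessel lists, those of mural cells, further endothelial genes, barrier transporters, junctions, VEGF and angiopoietin genes, Wnt genes, transcription factors and arterial and venous genes, no gene was called in any of the 10 comparisons of THC with vehicle.

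Within a group the 10 genes tended to vary together from library to library. Each log2 CPM was taken as its deviation from the mean of its region, sex and treatment group, and the 45 pairs of genes had Pearson correlations of 0.05 to 0.54 over 119 libraries, with a median of 0.30, all above 0. Libraries share depth and normalization between genes, and the correlations are given as a description. The closest pair was Flt1 and Kdr, the VEGF receptors, at 0.54, followed by Pecam1 and Slc2a1 at 0.49, and the weakest was Ly6c1 with Kdr at 0.05. Pecam1 had the highest mean correlation with the other 9 (0.40) and Kdr the lowest (0.23). The SD within groups on the log2 scale was 0.128 (Slc2a1) to 0.23 (Cdh5). By region the median over pairs was highest in the VTA (0.38), followed by PFC (0.36), NAc (0.35) and DMS (0.24), and lowest in the Amy (0.20). Among 14859 other genes with a mean of at least 1 CPM, the 10 most like the set, by mean correlation with its members over the 119 libraries, were Abcb1a (0.41), Vwf (0.38), Slfn5 (0.37), Tgm2 (0.37), Adgrl4 (0.37), Ahnak (0.36), Arpc1b (0.35), Adgrf5 (0.35), Msn (0.35) and Cd93 (0.35). The median over all those genes was 0.00715, and 5 of the 10 were on the vessel lists.

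The mean deviation of the 10 genes in a library followed that of the 22 further endothelial genes, with a correlation of 0.85 over 119 libraries. The correlation was lower with mural genes (0.60), astrocyte genes (0.46), microglial genes (0.41), vascular fibroblast genes (0.40), oligodendrocyte genes (0.32), red cell genes (0.31), choroid plexus genes (-0.03) or neuronal genes (-0.18) and, for depth, it was 0.28. In 6 libraries all 10 genes were above the mean of the group and in 6 all 10 were below it. The library farthest from its group was FTL_365 of the THC-treated female VTA, with a mean deviation of 0.35 and all 10 genes above the group mean. It also stood at 3.06 for red cell genes, 1.71 for vascular fibroblast genes and 0.68 for mural genes on the log2 scale. Without it, the median log2 fold change of the 10 genes with THC in the female VTA moved from -0.07 to -0.15, and none was called.

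**Figure D5:**
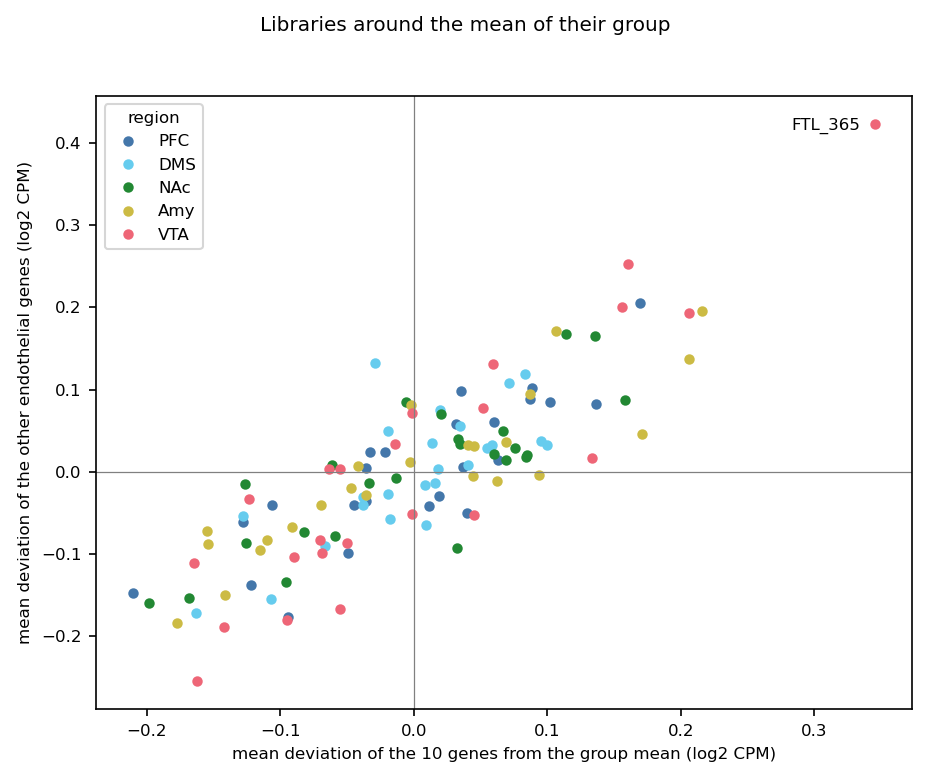
Mean deviation from the group mean (log2 CPM) of the 10 genes (x axis) and of the 22 further endothelial genes (y axis), 1 point for each of 119 libraries, coloured by region. The points rise along a line through 0, and FTL_365 of the THC-treated female VTA lies apart at the upper right.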

How the data were processed

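RNA from brain punches had been prepared as stranded poly(A) libraries. Per the labels and the methods of the study, the authors trimmed reads with cutadapt 2.9, aligned them to mm10 with STAR 2.7.3a and deposited expected counts per gene from RSEM 1.3.1, in a table of PFC and DMS and a table of NAc, Amy and VTA. The expected counts were rounded to whole numbers. No 2 libraries held identical values. Each comparison was fitted over all genes in edgeR 4.0.16 (R 4.3.3), with filterByExpr, TMM scaling and robust quasi-likelihood F tests, and p-values were adjusted by Benjamini-Hochberg over all genes tested. Regions were tested within a table, with groups weighted equally, and DESeq2 1.42.0 was an alternative. Other alternatives were the size factors of DESeq2, library totals, no filter on low counts, vehicle libraries alone, 1 fit per region and leaving out libraries. Log2 CPM for the deviations used a prior count of 2. On simulated data with 200 changed genes, edgeR recovered 200 of them in the female DMS comparison among 15883 genes, and 170 for the interaction in the DMS among 16501. Each planted change was 2-fold, up or down, in a gene with a mean count above 200, and every gene was given the same dispersion. Recovery of the 10 endothelial genes at the fold changes seen with THC was not tested. Symbols were matched to GENCODE on GRCm38 for 53292 of 55291 genes. The 10 genes, the lists and the tests were chosen with earlier results of these data known. All 10 genes were named in every comparison, other list genes where they were called in a THC comparison, and at most 2 of a list, by smallest p, in a region comparison, from which examples are given. Depth of 3091000 to 77042100 counts limits precision for the lowest genes. The p-values set a difference against the spread between libraries. In the comparisons of regions they treat libraries of the same mice as independent.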

Additional observations from a re-analysis of the deposited data

Results flagged for a closer look

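In 10 of 200 sets of libraries (a gene in a group), 1 library stood farther from the others than Dixon's 95% limit allows, and chance marks about 1 in 20 such sets. Flt1 in FTL_342 of the THC-treated female Amy was at 38.9 CPM, above the 29.1 to 31 CPM of the other 5 libraries. Flt1 in FTL_358 of the vehicle-treated female VTA was at 69.1 CPM, above the 55.6 to 60.5 CPM of the other 5 libraries. Pecam1 in FTL_312 of the vehicle-treated female NAc was at 8.37 CPM, below the 11.9 to 12.8 CPM of the other 5 libraries. Cdh5 in FTL_365 of the THC-treated female VTA was at 17.6 CPM, above the 10.6 to 12.6 CPM of the other 5 libraries. Tek in FTL_303 of the THC-treated male DMS was at 8.27 CPM, below the 10.8 to 12.2 CPM of the other 5 libraries. Slco1a4 in FTL_273 of the vehicle-treated male PFC was at 23.1 CPM, below the 28.1 to 29.7 CPM of the other 5 libraries. Slc2a1 in FTL_261 of the vehicle-treated female PFC was at 39.7 CPM, below the 43.5 to 45.2 CPM of the other 5 libraries. Slc2a1 in FTL_303 of the THC-treated male DMS was at 51.1 CPM, below the 64.4 to 70.2 CPM of the other 5 libraries. Esam in FTL_269 of the THC-treated female PFC was at 8.5 CPM, above the 6.3 to 7.08 CPM of the other 5 libraries. Esam in FTL_365 of the THC-treated female VTA was at 13.4 CPM, above the 9.78 to 11.1 CPM of the other 5 libraries. The marked libraries are 8 in number, and FTL_303 and FTL_365 were each marked for 2 genes. No explanation was tested.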

How the results depend on the processing

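Over 2410 values recomputed for single genes under the alternatives, 2404 kept their side of the thresholds and, where called, their direction, and 0 called values changed sign. Uncalled values changed sign 146 times, all with a size of at most 0.0977 (log2) in the values reported. No THC comparison gained a call under any alternative, over 1590 values. Between NAc and Amy, the genes called fell to 0 in vehicle libraries alone, where Flt1 was 0.39. Kdr in the NAc against the VTA passed the fold threshold with library totals alone (-0.43), in vehicle libraries alone (-0.50) and without FTL_371 or FTL_373 (both -0.41), and Pecam1 there fell under it (-0.36) without the VTA libraries of high red cell counts, an alternative chosen after seeing the data, as was leaving out FTL_344 and FTL_356 between regions. The cause of these changes was not tested, and some alternatives hold fewer samples. No paired analysis was possible because the replicate numbers of the labels are unique to a library and groups share none. Depth limits the genes of low counts most. The lowest counts of Kdr, Tek and Esam were 31, 39 and 42, and that of Kdr was in FTL_371, the library of lowest depth. By median count Cdh5 (161) was lowest, followed by Esam (178), Tek (202) and Kdr (204).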
